A study of Mus musculus with 4 samples.

Results

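Spots rich in blood vessel transcripts were compared with spots in which no such transcript was found, in 4 tumor sections. A spot is a small barcoded area that captures the RNA of the several cells lying above it. Spots were selected on the detection of 4 endothelial genes, Pecam1, Cdh5, Kdr and Emcn, which encode proteins of the cells that line blood vessels. A spot was called vessel-rich where 3 or more of the 4 genes had at least 1 UMI (a molecular tag by which copies of the same captured RNA are counted a single time), and vessel-free where none had any. Of 11947 spots under tissue, 11798 held 5000 or more UMIs, and of these 2923 were vessel-rich, 2863 were vessel-free and the other 6012 held 1 or 2 of the genes. Because a deep spot shows more genes, equal numbers of both classes were drawn within 10 strata of spot depth in each section, which left 1782 spots per class, and the UMIs of each class were summed per section into 8 sums.

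The sections came from tumors of MC38, a mouse colon carcinoma line, grown subcutaneously in female F1 hosts of 8 to 12 weeks. Hosts of C57BL/6J x CC075/UncJ genotype are called CC075F1 here and hosts of C57BL/6J x CC080/TauUncJ genotype CC080F1, with 2 tumors each, and the study classes the former as responders to PD-1 blockade and the latter as non-responders. None received an anti-PD-1 antibody. Once tumors measured 75 to 110 mm3, each of the 4 hosts was given 200 µg of the 2A3 isotype control into the peritoneum, and the tumor was taken 48 hours afterward. MC38 is a single line implanted in every host, so the tumor cells were shared by both groups and the vessels were those of the host.

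Tumor vessels consist of endothelial cells, pericytes or smooth muscle cells that wrap them, and a basement membrane in between. New vessels sprout toward VEGF, a factor that cells release when oxygen is short, under the control of Notch and of the angiopoietin receptors. Oxygen falls with distance from a perfused vessel, and cells short of oxygen induce genes of glycolysis and pH control through the HIF transcription factors.

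The 4 genes that chose the spots are given as a description. In vessel-rich spots their levels ran from 23.0 to 62.9 CPM (a gene's UMIs scaled to a common total of all UMIs in the spots summed), and a vessel-rich spot held on average 1.11 to 2.02 UMIs of each, so that the class rests on few molecules per spot. Just inside the threshold lay 291, 419, 641 and 521 spots with 3 of the genes, and just outside it 515, 676, 736 and 697 spots with 2, in CC075F1 replicates 1 and 2 and CC080F1 replicates 1 and 2, the order used for all values given by section. Plvap, another endothelial gene, was at 55.9, 55.5, 63.6 and 76.6 CPM in the former and at 38.0, 28.8, 43.1 and 37.0 CPM in the latter. To check the label on a gene that had not been used, each gene was measured in spots classed by the other 3. In spots that held all of the other 3 genes, against spots that held none, the section ratios were 3.10 to 4.26 for Pecam1, 2.66 to 3.99 for Cdh5, 3.72 to 6.63 for Kdr and 3.33 to 8.37 for Emcn. Spots without the other 3 genes still held the fourth in 10.9% to 48.8% of cases, so a vessel-free spot is one in which no endothelial transcript of this group was captured and not one known to lack a vessel.

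Section totals ran from 82594649 to 146460975 UMIs, and the depth-matched class sums from 8906731 to 28441985 UMIs. Spot barcodes are those of the slide design, and pairs of sections had 2016 to 2793 of them in common. After matching, the median spot held 33300, 46220, 31280 and 33980 UMIs among vessel-rich and 33110, 45690, 31000 and 33820 UMIs among vessel-free spots. The mitochondrial share of UMIs was higher in vessel-rich spots in 4 of 4 sections, by 0.235 ± 0.103 percentage points (SD, n = 4; two-sided exact permutation test, p = 0.125, the smallest value that 4 pairs allow). In CC075F1 replicate 2, 69 spots held over 0.5% of skin, muscle or fat transcripts, of which 16 were among its matched vessel-rich and 2 among its matched vessel-free spots. The other 3 sections had none. Within a spot, fewer cells of a type and less RNA per cell cannot be told apart.

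Vessel-rich spots lay next to each other more than vessel-free spots lay next to them. Among the neighbors of vessel-rich spots, 28.4%, 29.3%, 53.4% and 41.9% were themselves vessel-rich by section. Among the neighbors of vessel-free spots the shares were 9.80%, 12.0%, 20.2% and 14.2%. The share was higher around vessel-rich spots in each section, as a description of spots of which many share neighbors. Depth was not matched here. Vessel-rich spots had median depths of 33550, 46800, 36270 and 40770 UMIs and vessel-free spots 30620, 42010, 31000 and 26760 UMIs. The part of depth in these shares was not tested. The share of spots called vessel-rich was 16.3%, 18.4%, 39.2% and 25.9%, with exact 95% binomial intervals, which cover counting error alone, of 14.9% to 17.7%, 17.1% to 19.8%, 37.4% to 41.0% and 24.3% to 27.4%. Both CC080F1 sections lay above both CC075F1 sections, and CC075F1 averaged 17.3% ± 1.48 and CC080F1 32.5% ± 9.42 (SD, n = 2; two-sided exact permutation test, p = 0.333, the smallest value that 2 against 2 allows). The shares depend on depth. With every spot thinned to 5000 UMIs they were 0.603%, 0.431%, 1.63% and 1.41%.

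**Figure D1:**
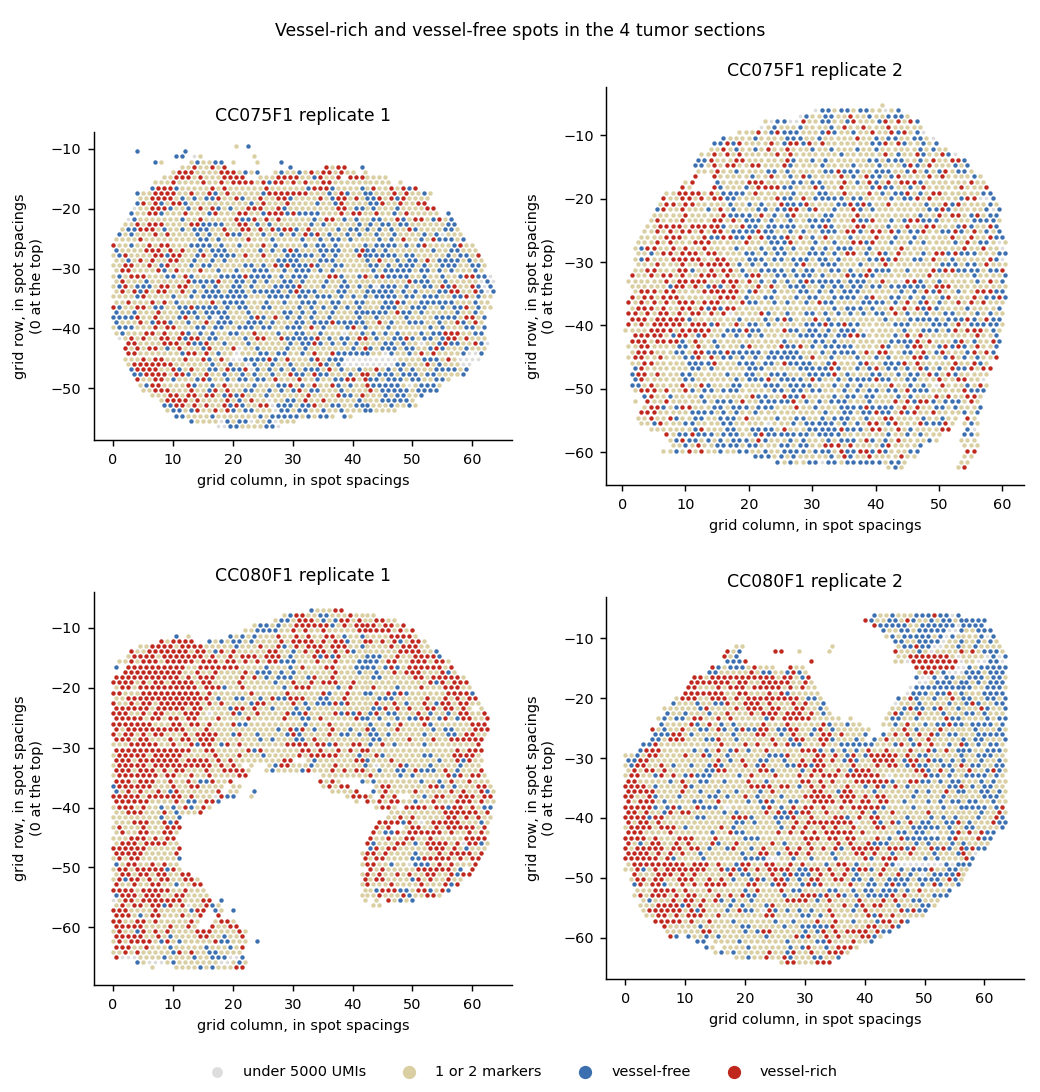
Position of vessel-rich (red), vessel-free (blue) and other spots in the 4 sections, with grid column and row in units of the spacing between spots. Red spots are gathered in patches and along some margins. They are most numerous in CC080F1 replicate 1, at 39.2% of spots against 16.3% in CC075F1 replicate 1.

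Of the matched vessel-rich spots, 25.5%, 22.6%, 35.6% and 24.8% lay within 3 grid steps of a position off tissue, against 5.97%, 11.6%, 31.9% and 22.7% of the matched vessel-free spots. The difference was 9.08 ± 7.99 percentage points (SD, n = 4) and positive in 4 of 4 sections, with exact permutation p = 0.125. It was 1.24 points over all spots without depth matching (exact permutation p = 0.75), 16.1 points with an edge of 5 steps and 5.59 points without CC075F1 replicate 1.

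Over all genes, 12828 were tested, with UMI sums fitted by edgeR's quasi-likelihood test and the section as a block. The 4 selecting genes were left out. In vessel-rich spots 1452 genes (11.3% of those tested) were higher and 1443 (11.2%) were lower at an adjusted p under 0.05. Over all genes the log2 fold change had a median of −0.02. Scaling by total UMIs alone shifted that median to 0.11 and the split to 3625 higher and 547 lower, so small differences in either direction depend on the scaling and the values below are relative to the TMM factors of edgeR. Without the section block, which leaves the spread between tumors in the error, 255 genes were called. Both sums of a section come from the same tumor, and p-values rest on 4 tumors.

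Other endothelial genes were higher in vessel-rich spots almost without exception. Of 30 endothelial genes that the selection had not used, 29 were higher and none was lower, with a median log2 fold change of 2.15. A gene was tested if enough UMIs lay in as many sums as 1 class holds. Genes could thus pass through vessel-rich sums alone, which fixes their direction in advance, here and in the lists below. Among vessel-free spots alone, in smaller sums, 24 of the 30 passed, and Tek, Sox17, Sox18, Erg, Clec14a and Aplnr did not. Plvap, which encodes the diaphragm protein of fenestrated capillaries, stood at 63.7, 48.8, 75.9 and 72.2 CPM in vessel-rich sums and at 10.3, 6.96, 21.9 and 12.6 CPM in vessel-free sums. The classes did not overlap, and the log2 fold change was 2.33 ± 0.11 (SE; adjusted p = 3.1e-08). Mmrn2, an endothelial matrix glycoprotein gene, was at 17.6, 12.6, 21.0 and 20.9 CPM against 2.12, 1.58, 7.41 and 2.996 CPM (2.44 ± 0.19). Esam, of the endothelial junctions, was at 38.5, 34.2, 36.4 and 46.9 CPM against 6.50, 5.10, 8.76 and 9.87 CPM (2.30 ± 0.09). For these genes the lowest vessel-rich sum exceeded the highest vessel-free sum, with the smallest ratio in CC080F1 replicate 1. The exception was Cd34, a sialomucin of endothelium and of some stromal cells, at 130.3, 162, 167 and 189 CPM in vessel-rich and 132, 172, 148 and 182 CPM in vessel-free sums (−0.10 ± 0.05, adjusted p = 0.21).

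Genes of vessel subtypes differed in how far they followed the class. Of the arterial genes 5 of 6 tested were higher, among them Hey1 (2.23), a Notch target, and Gja4 (2.22), a gap junction gene. Efnb2, the ephrin ligand of arteries, measured 47.4, 13.8, 47.0 and 28.6 CPM against 38.1, 11.4, 49.0 and 23.1 CPM and was not called (0.10 ± 0.07). It was the only arterial gene that passed the filter among vessel-free spots alone, so the others may have passed through vessel-rich sums alone. Hey1 and Gja4 averaged under 10 CPM. With 0.5 CPM added, the section medians of the arterial list ran from 1.18 to 1.57. Of the venous and leukocyte adhesion genes 3 of 5 tested were higher, with a median of 0.28, and Icam1, an adhesion molecule for leukocytes, was at 27.2, 22.7, 13.4 and 20.9 CPM against 15.8, 10.5, 10.6 and 15.1 CPM (0.61 ± 0.10, adjusted p = 5.0e-04). Vcam1, which serves the same purpose, had 92.8 to 175 CPM in vessel-rich and 77.8 to 174 CPM in vessel-free sums and was not called (−0.04 ± 0.04, adjusted p = 0.52). Of 7 genes of capillaries and lipid handling 5 were higher, led by the fatty acid binding protein gene Fabp4 (2.10) and by Gpihbp1 (1.89), which holds lipoprotein lipase on capillary endothelium. Of 3 lymphatic genes tested, Flt4 was higher (2.06), Pdpn was called lower (−0.14) with its CPM lower in 2 of 4 sections, and Lyve1 was not called (0.53), while Prox1, the defining lymphatic factor, was too low to be tested.

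Of 9 VEGF ligand and receptor genes, 3 were higher and 4 lower in vessel-rich spots, with a median of −0.14. No VEGF ligand gene was called higher, and the receptor genes Flt1 and Flt4 and the co-receptor gene Nrp1 were. Vegfa, the main ligand that attracts sprouts and also a hypoxia-induced gene, was at 75.9, 41.7, 91.6 and 64.9 CPM in vessel-rich and at 116, 70.1, 170.1 and 129 CPM in vessel-free sums. It was lower in 4 of 4 sections (−0.94 ± 0.06, adjusted p = 2.1e-07). Vegfb, Vegfd and the co-receptor gene Nrp2 were also lower, by at most 0.33 on the log2 scale, and Vegfc (−0.14) and Pgf (−0.01), both VEGF family ligands, were not called. Under scaling by total UMIs alone 2 genes of this list rather than 4 were lower, so the smallest of these differences depend on the scaling. Among the receptors, Flt1 was at 31.5, 16.9, 30.6 and 34.99 CPM against 4.94, 3.02, 11.4 and 8.93 CPM (2.00 ± 0.14), Flt4 differed by 2.06 ± 0.17, and the co-receptor gene Nrp1 by 0.76 ± 0.19.

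Of 5 angiopoietin and TIE genes tested 4 were higher. All 4 are on another list too, Tie1, Tek and Ptprb among the endothelial genes and Angpt2 among those of tip cells. Other genes, such as Flt1, Flt4, Dll4 and Vegfa, are likewise on more than 1 list, so the counts of different lists are not independent. Angpt2, the ligand that endothelium releases to loosen vessels, was at 13.7, 10.6, 12.8 and 17.5 CPM against 2.97, 1.76, 5.73 and 5.70 CPM (1.78 ± 0.16, adjusted p = 6.8e-06). Angpt1, the ligand made by mural cells, was under 2 CPM in every sum and was not called (0.47 ± 0.31). The receptor gene Tie1 differed by 2.37 ± 0.13, and its partner Tek, which encodes TIE2, was higher too, though the vessel-free sums of CC075F1 lay at or under 3 UMIs, the limit taken for a count of 0 (0.0706 and 0.105 CPM). For Notch, 9 of 11 genes tested were higher, with a median of 1.32. The ligand gene Dll4 was at 19.0, 12.0, 21.6 and 18.02 CPM against 2.83, 2.15, 5.61 and 4.82 CPM (2.12 ± 0.13). The receptor genes Notch4 and Notch1 differed by 1.32 ± 0.09 and 0.99 ± 0.09, and the ligand gene Jag1, at 3.93 to 9.47 CPM against 3.16 to 7.07 CPM, was not called (0.21 ± 0.11). Of 12 genes of tip cells and sprouting 10 were higher, including Esm1 (1.89) and Kcne3 (1.91), which mark the leading cells of sprouts. BMP and TGF-beta genes were mixed, with 5 of 11 higher, 1 lower and a median of 0.23, and Id1, a BMP target, led them at 1.305.

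Mural cell and matrix genes moved with the endothelial genes. Of 14 pericyte and smooth muscle genes tested 13 were higher, with a median of 1.86. Rgs5, a pericyte marker, stood at 29.1, 29.2, 81.9 and 63.3 CPM in vessel-rich and at 6.92, 4.99, 27.4 and 14.8 CPM in vessel-free sums (1.93 ± 0.10, adjusted p = 5.6e-08). Every vessel-rich sum was above every vessel-free sum, but the vessel-free level in CC080F1 replicate 1 was close to the vessel-rich levels of CC075F1. Acta2, smooth muscle actin, differed by 2.14 ± 0.12 and Mcam, an adhesion molecule of endothelium and pericytes, by 2.26 ± 0.12. The exception was Cspg4, which encodes the NG2 proteoglycan, with 22.8 to 65.1 CPM against 23.1 to 62.8 CPM (−0.01 ± 0.06). All 13 basement membrane genes were higher, with a median of 1.13. Col15a1, a collagen of the zone around vessels, was at 36.3, 16.2, 69.1 and 49.4 CPM against 5.72, 1.93, 15.5 and 6.34 CPM (2.55 ± 0.11), and Nid1, nidogen, differed by 2.29 ± 0.16.

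Fibroblast genes were divided. Of 13, 10 were higher and 1 lower, with a median of 1.19. The fibrillar collagen gene Col1a2 was at 114, 338, 77.8 and 271.3 CPM against 13.1, 48.5, 29.2 and 55.5 CPM (2.32 ± 0.16), and Postn, periostin, differed by 2.24 ± 0.13. Col3a1, a fibrillar collagen gene too, measured 946, 467, 2082 and 1614 CPM against 1299, 238, 1847 and 1317 CPM and was not called (0.12 ± 0.13). Dcn, decorin, was lower in 4 of 4 sections, at 460.5, 337, 567 and 752 CPM against 601, 384, 593 and 845 CPM (−0.32 ± 0.05, adjusted p = 3.2e-04), and Pdgfra was not called (−0.19). The genes with the largest positive differences at 10 CPM or more were, in order, Mest, Mgp, Col15a1, Mmrn2, Plvap, Col1a2, Esam, Nid1, Serping1, Mcam, Igfbp7 and Postn. Mest, an imprinted gene, was at 39.2, 26.5, 61.4 and 38.1 CPM against 3.25, 3.38, 11.1 and 7.52 CPM (2.64 ± 0.13). Mgp, an inhibitor of calcification and of BMPs, was at 52.5, 97.1, 40.0 and 49.6 CPM against 5.65, 15.4, 7.41 and 6.99 CPM (2.62 ± 0.09). For both, each vessel-rich sum was above every vessel-free sum.

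**Figure D2:**
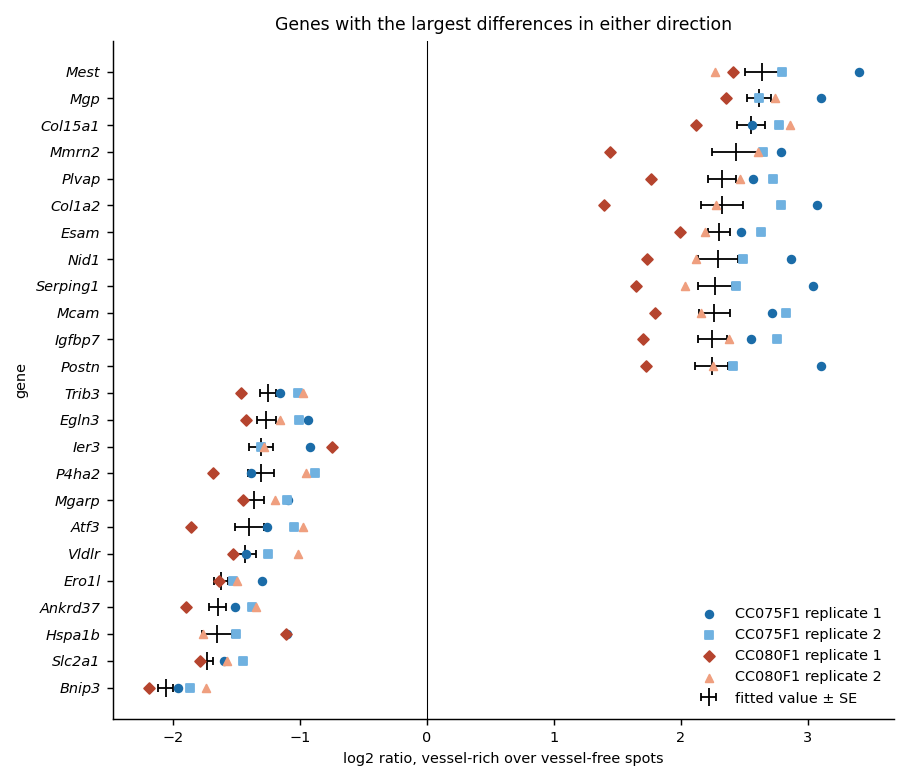
The 12 largest positive and 12 largest negative log2 fold changes among called genes at 10 CPM or more with 1 direction in all 4 sections, with the fitted value ± SE in black and the log2 ratio of each section (with 0.5 CPM added to both classes and no TMM factor) in color. The choice of genes fixes that the sections lie on one side of 0. Bnip3 is lowest at −2.06 and Mest highest at 2.64.

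Hypoxia genes were lower in vessel-rich spots almost without exception. Of 15 genes on the list 14 were lower in vessel-rich spots and none was higher, with a median log2 fold change of −1.16. Bnip3, a mitophagy gene induced by HIF, stood at 50.4, 70.7, 48.6 and 70.2 CPM in vessel-rich and at 197, 259, 224 and 236 CPM in vessel-free sums (−2.06 ± 0.06, adjusted p = 5.3e-10). Slc2a1, the glucose transporter GLUT1, was at 36.2, 57.5, 58.0 and 60.2 CPM against 110.5, 158, 202 and 179.7 CPM (−1.73 ± 0.05). Car9, a carbonic anhydrase that regulates pH, was at 2.36, 2.44, 1.98 and 1.91 CPM against 13.6, 8.54, 8.42 and 9.69 CPM (−2.29 ± 0.13). For these 3 genes every vessel-free sum was higher than every vessel-rich sum, and the vessel-rich levels of Car9 differed little between sections. Ankrd37, an ankyrin repeat gene, and Ero1l, which forms disulfides in the endoplasmic reticulum, differed by −1.65 ± 0.07 and −1.62 ± 0.06. The abundant glycolytic genes Pgk1 and Ldha were lower by less, at −0.89 and −0.75. Adm, adrenomedullin, a hypoxia-induced peptide that endothelium also makes, was the exception, at 0.971, 2.90, 2.86 and 3.53 CPM against 0.989, 1.301, 2.36 and 3.06 CPM (0.38 ± 0.20, adjusted p = 0.20). Summed over the list, vessel-rich levels were 2529, 2462, 2357 and 2731 CPM and vessel-free levels 4361, 4352, 4470 and 4676 CPM. The 14 hypoxia calls held with each class definition tried, within interior spots, with depth and edge matched together and without each section in turn, and 11 of them held without the section block.

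Among the genes with the largest negative differences, Mgarp, Egln3 and P4ha2 are also induced by hypoxia, Vldlr encodes a lipoprotein receptor, and Atf3, Ier3 and Trib3 belong to stress responses. Atf3 was at 4.92, 8.13, 4.41 and 6.84 CPM against 12.5, 17.4, 17.3 and 13.9 CPM (−1.40 ± 0.12, adjusted p = 2.5e-06). Hspa1b, an inducible HSP70 gene, was at 6.31, 5.66, 4.41 and 6.84 CPM against 14.1, 17.0, 10.1 and 24.4 CPM (−1.65 ± 0.12). Its neighbor Hspa1a is a near-identical copy, so that the division of reads between them is uncertain.

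The hypoxia response element, the site at which HIF binds, has the core ACGTG or GCGTG, which reads CACGT or CACGC on the other strand. RefSeq promoters (GRCm38.p6, the build of the files) were found for 12 of the 15 hypoxia genes, those of Ndrg1, Ero1l and Bnip3l not being matched by name. In the 250 bases before the start, 11 of the 12 (91.7%) held at least 1 such core, against 38.6% of 27025 promoters. The 11 include Adm, which was not lower in vessel-rich spots, and the gene without a core is Vegfa, which was lower. Mean GC content was 63.6% for the hypoxia list and 53.0% for all promoters. Among genes tested here the share was higher than among all promoters whatever their call, at 57.8% (GC 60.0%) for genes not called, 60.8% for genes lower and 42.7% for genes higher in vessel-rich spots. Only 78.8%, 77.8% and 72.5% of these genes had a promoter in the table, so those shares are incomplete and no comparison was drawn from them. Windows of 100 bases are shown for the 4 hypoxia genes with the largest differences that have one, to let the cores be seen in place, with the cores in capitals.
Bnip3, chr7:138909507-138909606, minus strand: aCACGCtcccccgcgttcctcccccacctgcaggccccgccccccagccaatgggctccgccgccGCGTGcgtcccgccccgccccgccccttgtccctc
Slc2a1, chr4:119108645-119108744, plus strand: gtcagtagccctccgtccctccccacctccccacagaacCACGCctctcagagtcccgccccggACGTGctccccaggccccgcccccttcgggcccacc
Car9, chr4:43506926-43507025, plus strand: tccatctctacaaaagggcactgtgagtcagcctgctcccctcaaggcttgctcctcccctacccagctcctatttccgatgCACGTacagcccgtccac
Ankrd37, chr8:45999851-45999950, minus strand: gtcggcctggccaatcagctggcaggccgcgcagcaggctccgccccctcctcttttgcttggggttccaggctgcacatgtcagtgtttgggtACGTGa
Bnip3 and Slc2a1 hold 2 cores in the window and Car9 and Ankrd37 hold 1. A core is a match of letters and was not measured as a bound site.

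MHC class II, IFN-γ response and T and NK cell genes were for the most part higher in vessel-rich spots. All 6 MHC class II genes were higher, with a median of 0.57, and H2-Ab1 stood at 963, 644, 137 and 251 CPM against 629, 320.3, 95.5 and 115 CPM (0.71 ± 0.07, adjusted p = 1.9e-05). Within each section the vessel-rich sum was higher, but CC075F1 vessel-free spots still held more H2-Ab1 than CC080F1 vessel-rich spots. Of 9 IFN-γ response genes tested 7 were higher, with section medians from 0.10 in CC080F1 replicate 1 to 0.97 in CC075F1 replicate 2. Cxcl9, a chemokine gene induced by IFN-γ that attracts T cells, was at 487, 512, 56.4 and 169.7 CPM against 193, 153, 40.2 and 72.2 CPM (1.17 ± 0.11, adjusted p = 8.8e-06). Of 11 T and NK cell genes 8 were higher, with a median of 0.66. Section medians ran from 0.21 in CC080F1 replicate 1 to 0.82 in CC075F1 replicate 2. Cd8a, which marks cytotoxic T cells, was at 17.3, 7.89, 2.97 and 1.62 CPM against 9.39, 4.25, 1.57 and 0.588 CPM (0.79 ± 0.12, adjusted p = 5.2e-04). Ptprc, the pan-leukocyte gene that encodes CD45, differed by 0.44 ± 0.06. Without the section block no gene of these 3 lists was called.

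Of 13 macrophage and monocyte genes 6 were higher and none was lower, with a median of 0.16. Section medians were 0.06, 0.60, 0.12 and 0.31, and the summed list was at 6454, 5816, 4198 and 4744 CPM against 6456, 3949, 4007 and 3929 CPM, so the difference was largest in CC075F1 replicate 2. Ccr2, a receptor of recruited monocytes, was at 57.2, 26.1, 73.6 and 62.6 CPM against 36.1, 15.5, 55.2 and 40.5 CPM (0.49 ± 0.05), and Csf1r differed by 0.30 ± 0.07. Without CC080F1 replicate 2, 4 of 12 were higher. Proliferation genes differed little, with 9 of 12 higher and a median of 0.16, and Mcm5, of the replicative helicase, was at 147, 119, 170.3 and 149 CPM against 119.6, 79.9, 143 and 114 CPM (0.26 ± 0.04). Shisal2b, which the study uses as an MC38 marker, was at 167, 255, 131 and 265 CPM against 137, 226, 113 and 249 CPM and was not called (0.06 ± 0.05, adjusted p = 0.39). The other epithelial tumor genes listed, Krt8, Krt18, Krt19 and Krt20, were too low to be tested.

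Markers of tissue around the tumor were present too. Of 8 skeletal muscle genes tested 7 were higher, but Acta1, muscle actin, was at 0.0693, 116, 8.26 and 0.0579 CPM against 0.0706, 12.7, 6.29 and 0.117 CPM, so the difference lay in CC075F1 replicate 2. Without that section, and by DESeq2, no muscle gene was called. Of the keratinocyte genes only Krt10 passed the filter and was not called (−0.11). Both adipocyte genes tested, Car3 and Pparg, were higher, with section medians of 0.08, 1.81, 1.01 and 1.64. Neither passed the filter among vessel-free spots alone, so both may have passed through vessel-rich sums alone. Car3, found in fat and muscle, differed by 2.98, at 9.02 against 0.809 CPM in CC075F1 replicate 2 and 6.32 against 0.411 CPM in CC080F1 replicate 2. With the 69 spots left out, the endothelial, mural, matrix, fibroblast and hypoxia lists had the same numbers of genes higher and lower as above. Of 3 B cell, 3 neutrophil, 3 platelet and 3 Schwann cell genes tested, 1 B cell gene (Ighm, 0.54) and 1 Schwann cell gene (Mbp, 0.48) were higher and the rest were not called. Among the neutrophil, platelet and keratinocyte genes, of which edgeR, DESeq2 and limma-voom called none, 1, 1 and 0 had an unadjusted p under 0.05 by edgeR. Over all genes 4506 of 12828 had one, so these counts do not set the lists apart. Hemoglobin genes, which mark red blood cells, differed in direction between sections, and none of 4 was called or reached an unadjusted p under 0.05 by edgeR, DESeq2 or limma-voom. Hbb-bs stood at 20.9, 159, 109 and 208 CPM against 6.50, 309, 54.2 and 45.8 CPM, higher in vessel-rich spots in 3 sections and lower in CC075F1 replicate 2. Without CC075F1 replicate 2 all 4 were called higher. Hemoglobin genes come in near-identical copies, so that the level of any single copy is uncertain.

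**Figure D3:**
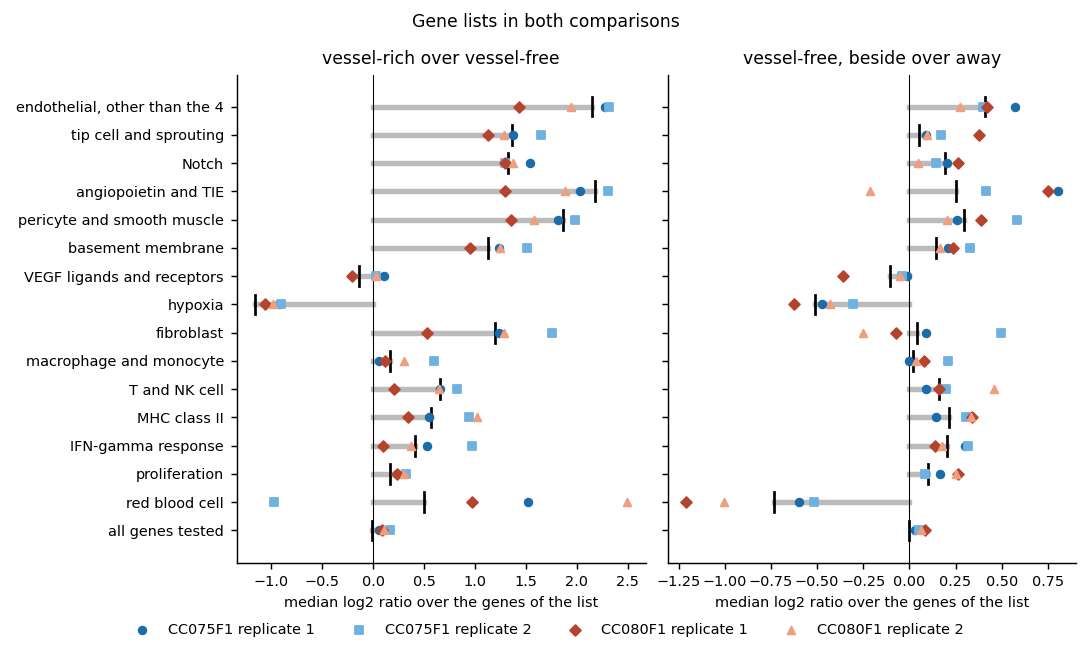
Median log2 ratio over the genes of each list, in vessel-rich over vessel-free spots (left) and in vessel-free spots beside over away from vessel-rich spots (right). Black ticks and gray bars give the median of the fitted values and symbols the median of section ratios (0.5 CPM added, no TMM factor). Endothelial genes reach 2.15 and hypoxia genes −1.16 on the left, and hypoxia genes −0.51 on the right.

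Levels in spots between the classes lay between those of the classes for most of the genes plotted. These values are a description, with depth strata weighted equally. Bnip3 was at 182, 133.9, 86.8, 53.2 and 32.0 CPM in spots with 0, 1, 2, 3 and 4 of the genes in CC075F1 replicate 1, and at 243, 181, 124, 76.8 and 50.9 CPM in CC080F1 replicate 2. Plvap ran the other way, from 13.2 to 95.8 CPM and from 14.2 to 163.6 CPM in the same sections. Bnip3 and Slc2a1 were lower and Plvap was higher at each step in all 4 sections. Cxcl9 went from 231 to 589 CPM in CC075F1 replicate 1, but moved only between 40.2 and 63.1 CPM in CC080F1 replicate 1. The fibroblast list, at 2067, 1953, 1925, 1901 and 2014 CPM in CC075F1 replicate 1, had no such order there, while it went from 1152 to 2815 CPM in CC075F1 replicate 2.

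**Figure D4:**
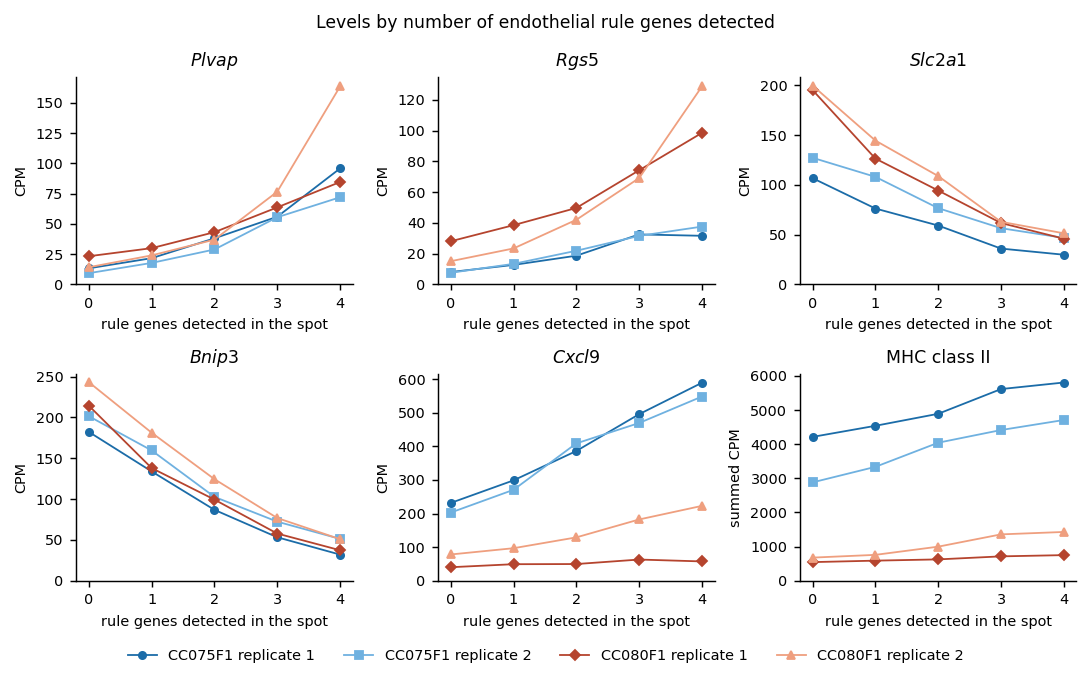
Levels in CPM against the number of selecting genes detected in the spot, one line per section, for an endothelial gene (Plvap), a pericyte gene (Rgs5), hypoxia genes (Slc2a1 and Bnip3), Cxcl9 and the summed MHC class II genes. Slc2a1 and Bnip3 are lower at every step, and Cxcl9 and MHC class II lie far higher in the CC075F1 sections at every number of genes.

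To ask whether spots without vessel transcripts differed by their surroundings, vessel-free spots with at least 1 vessel-rich neighbor among 6 were compared with vessel-free spots with none. None of the 4 selecting genes was detected in either group, so their own levels of these genes do not divide them. There were 1322 spots beside and 1541 away, of which 1103 of each were matched by depth. RNA can spread between neighboring spots on the slide, and its part was not tested. Of the spots beside, 13.8% to 32.1% by section lay at the edge, and of those away 12.9% to 32.1%. Of 11875 genes tested, 132 (1.11%) were higher and 385 (3.24%) lower beside vessel-rich spots (edgeR, adjusted p under 0.05). Scaling by total UMIs alone gave 573 higher and 203 lower and moved the median of all genes from 0.00 to 0.06.

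Hypoxia genes were lower beside vessel-rich spots as well, 14 of 15 of them, with a median of −0.51. Car9 was at 8.92, 5.33, 4.24 and 6.78 CPM beside and at 15.8, 9.56, 14.1 and 16.2 CPM away (−1.06 ± 0.12, adjusted p = 3.0e-09). Slc2a1 was at 75.5, 123, 148 and 156 CPM beside and 121, 162, 307 and 241 CPM away (−0.69 ± 0.05), and Bnip3 at 132, 205, 169.9 and 207 CPM against 227, 261, 333 and 298 CPM (−0.66 ± 0.05). Each of these genes was lower beside in 4 of 4 sections, and for Slc2a1 and Bnip3 the smallest difference was that of CC075F1 replicate 2. Vegfa differed by −0.36 ± 0.05 and Pgf by −0.65 ± 0.18 (adjusted p = 0.018). The stress gene Atf3 was at 7.67, 12.6, 12.7 and 11.8 CPM against 15.3, 20.3, 29.3 and 20.6 CPM (−0.89 ± 0.09), and Hspa1a and Hspa1b, the near-identical HSP70 copies, differed by −1.04 and −0.89. The number of hypoxia genes called lower was 13 or 14 without any 1 section and 11 by DESeq2.

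Red blood cell genes, none of which was called between the classes, were lower beside vessel-rich spots in all 4 genes tested, with a median of −0.73. These are the near-identical hemoglobin copies, so the 4 are not independent. By DESeq2 2 of them were called lower, and in interior spots 3 were, with a median of −0.39. Hbb-bs was at 7.26, 206, 38.1 and 31.9 CPM beside and at 8.99, 290.0, 85.5 and 69.7 CPM away (adjusted p = 3.7e-13). It was lower beside in 4 of 4 sections, least so in CC075F1 replicate 1. Lyve1, found on lymphatic endothelium and some macrophages, was at 0.311, 0.220, 2.28 and 1.59 CPM beside and at 0.418, 0.275, 2.96 and 9.91 CPM away, so its log2 fold change of −1.82 ± 0.33 lay mostly in CC080F1 replicate 2.

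All 6 MHC class II genes were higher beside vessel-rich spots, with a median of 0.22, and 3 to 6 of them without any 1 section. Of 9 IFN-γ response genes 6 were higher and 1, Cd274, which encodes PD-L1, was lower (−0.53 ± 0.13). The 6 became 2 by DESeq2 and 3 without either CC075F1 section, and Cd274 was not called lower in interior spots, by DESeq2, or without CC075F1 replicate 1 or CC080F1 replicate 2. Cxcl9 was at 251, 198, 46.3 and 103 CPM beside and at 196, 137, 32.5 and 55.8 CPM away, higher in 4 of 4 sections (0.47 ± 0.04, adjusted p = 1.3e-11). No gene of 8 T and NK cell genes tested was called by edgeR, DESeq2 or limma-voom. By edgeR 1 had an unadjusted p under 0.05, beside 1661 of 11875 over all genes. The T and NK cell median was 0.16, with section medians of 0.09, 0.20, 0.16 and 0.46. The endothelial genes Gpihbp1 (0.62), Plvap (0.45), Ecscr (0.42) and Egfl7 (0.41) were higher, of 24 tested, and Cd34 was lower (−0.14). The endothelial median was 0.41, with section medians of 0.57, 0.40, 0.42 and 0.28. By edgeR 15 of the 24 had an unadjusted p under 0.05, beside the 1661 of 11875 over all genes. Without CC075F1 replicate 1 a single endothelial gene was called, and by DESeq2 none was, with 5 at an unadjusted p under 0.05. Of 12 pericyte and smooth muscle genes 4 were higher and none lower (median 0.30). Of 13 basement membrane genes 3 were higher and none lower (median 0.15). Mgp was the gene with the largest positive difference at 10 CPM or more, at 10.8, 26.3, 10.4 and 11.3 CPM against 4.60, 11.2, 5.59 and 5.36 CPM (1.13 ± 0.10), followed by Gpihbp1, Thy1, Crabp1 and Igfbp7. The MC38 marker Shisal2b was higher too (0.21 ± 0.04). Muscle genes were called in 5 of 6 cases, and in none without the 69 spots or without CC075F1 replicate 2.

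Grouping vessel-free spots by the number of grid steps to the nearest vessel-rich spot gave levels over a longer range, as a description. In CC080F1 replicate 1 the hypoxia list measured 2321 CPM in vessel-rich spots and 3803, 5464 and 6018 CPM in vessel-free spots 1, 2 and 3 or more steps away. The last value comes from 35 spots, 3 of them not joined to a vessel-rich spot through tissue, with a median depth of 22650 UMIs against 36270 in vessel-rich spots. In CC075F1 replicate 1 the list measured 2534, 3610, 4660 and 4748 CPM. The list was higher at each step in 4 of 4 sections, and the depth of these groups was not matched. Cxcl9 went from 519 to 206, 149 and 118 CPM over the same groups in CC075F1 replicate 2, and from 54.4 to 44.6, 29.2 and 43.5 CPM in CC080F1 replicate 1.

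**Figure D5:**
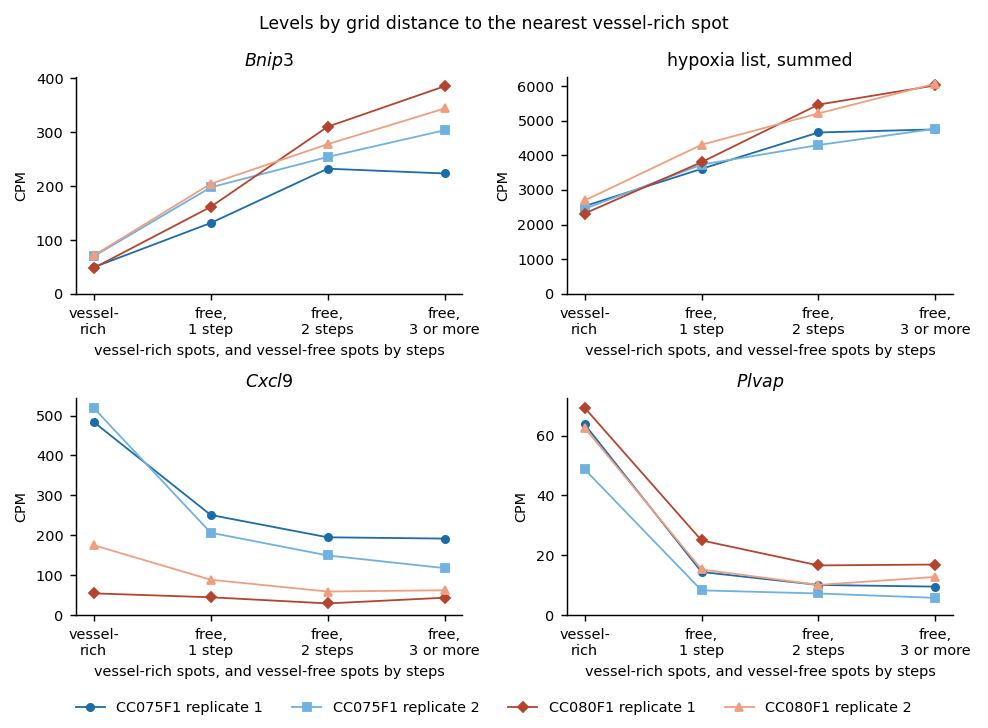
Levels in CPM in vessel-rich spots and in vessel-free spots 1, 2 and 3 or more grid steps from the nearest vessel-rich spot, one line per section. The summed hypoxia list climbs from 2321 to 6018 CPM in CC080F1 replicate 1. Plvap drops mostly between vessel-rich spots and the next step, where the class changes along with the distance, so that drop does not measure distance alone.

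Whether the difference between the classes depended on the host was tested by the class by strain term. Of 12828 genes 5 (0.039%) had a larger log2 ratio in CC075F1 and 1 (0.0078%) a smaller one, and 595 had an unadjusted p under 0.05. Igfbp3, which encodes a binding protein of insulin-like growth factors, was at 235.5 and 178 CPM in vessel-rich and 39.8 and 29.2 CPM in vessel-free sums of CC075F1. In CC080F1 it was at 306 and 186.5 CPM against 109.9 and 63.6 CPM, so that it was higher in vessel-rich spots in all 4 sections with a larger ratio in both CC075F1 sections (difference of log2 ratios 1.03 ± 0.09, adjusted p = 4.5e-04). Lum and Aspn, small proteoglycans of connective tissue, and Plac8 also had larger ratios in CC075F1, by 1.82, 1.53 and 1.21. Acta1 (2.70) could not be tested without CC075F1 replicate 2, and Hba-a2 (−3.04) was −0.17 without it. Lum was 1.39 without CC080F1 replicate 2. Fits without a section leave 1 host with 1 tumor, so only the size of the difference is given for them. Of the 30 endothelial genes none was called by edgeR, DESeq2 or limma-voom. By edgeR 17 of them had an unadjusted p under 0.05, beside the 595 of 12828 over all genes, and by DESeq2 4 had. Their median difference was 0.61, and it ran from 0.40 without CC080F1 replicate 1 to 0.87 without CC080F1 replicate 2. Of the 15 hypoxia genes none was called and none had an unadjusted p under 0.05 by edgeR (median 0.08). A different random draw of matched spots gave 20 genes in place of 6, so the number called depends on which spots were drawn.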

How the data were processed

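Spatial transcriptomes of 4 tumor sections were read on a slide of barcoded spots. The authors aligned reads to GRCm38 (the mm10 reference, with GENCODE annotation) with Space Ranger 1.3.1 and deposited UMI counts per gene and spot, not normalized, for spots under tissue, with each spot's place on the grid. The tables hold 32285 genes. Gene positions and image files were not used for values, and the methods describe sections of the 4 blocks on a Visium slide and libraries pooled for sequencing, with no capture area or batch given per section in the sources used here.

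Spots under 5000 UMIs were left out. Depth strata were 10 quantile bins per section, from which equal numbers of spots were drawn with a fixed seed. Counts were summed per class and section and given as CPM. The sums were fitted with edgeR 4.0.16 (quasi-likelihood, TMM, filterByExpr, section as a block) in R 4.3.3, with Benjamini-Hochberg adjustment over all genes tested and a threshold of 0.05. Single values were compared by exact permutation tests in SciPy 1.17.1. DESeq2 1.42.0, limma-voom (limma 3.58.1), other scalings, filters, strata, draws and class definitions, and leaving out each section, were alternatives. The fits were tested on simulated data. Limits for a count of 0 were set at 3 UMIs and, like binomial intervals, cover counting error only. The labels call the sections biological replicates.

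The members and all gene lists were chosen with earlier results of these data known. Named genes were the 12 largest differences in each direction (5 beside against away, and for the strain difference) among called genes at 10 CPM or more with 1 direction in all 4 sections (direction not asked for the strain difference), up to 4 leading members of each list, and a fixed set of vessel signaling and immune genes. Members of lists that went against their list or were shown as examples beyond this, such as Cd34, Efnb2, Adm, Cspg4, Dcn, Col3a1, Pdgfra, Pgk1, Ldha, Id1, Lyve1 and Cd274, were named after their values were seen. Matching of edge and interior zone for the beside against away comparison and for the strain difference was added after seeing the data.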

Additional observations from a re-analysis of the deposited data

Results flagged for a closer look

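The difference between vessel-rich and vessel-free spots itself differed between the hosts for 6 genes in the class by strain test (edgeR, adjusted p under 0.05). The difference of log2 ratios, CC075F1 minus CC080F1, was 1.03 for Igfbp3, 1.21 for Plac8, 1.53 for Aspn, 1.82 for Lum, 2.70 for Acta1 and −3.04 for Hba-a2. Igfbp3 was called in every alternative that kept all 4 sections. Plac8, of immune and other cells, was at 13.9 and 47.7 CPM in vessel-rich and 4.17 and 11.3 CPM in vessel-free sums of CC075F1, and at 14.1 and 50.5 CPM against 9.66 and 29.8 CPM in CC080F1. Hba-a2, which has a near-identical copy, was lower in vessel-rich spots in CC075F1 replicate 2 and higher in the other 3 sections. Acta1 could not be tested without CC075F1 replicate 2, the section with the skin, muscle or fat spots, so its value rests on that tumor. No muscle gene was called for the strain difference in interior spots, with 20 strata, or with depth and edge matched together.

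In vessel-free spots beside against away from vessel-rich spots, the median log2 ratio of the fibroblast list was 0.09 and 0.50 in CC075F1 and −0.07 and −0.25 in CC080F1, so by this median both sections of each host lay on one side of 0. The summed list did not divide the hosts, at 1853 and 978.7 CPM beside against 2236 and 785.4 CPM away in CC075F1, and 2651 and 2517 CPM against 2598 and 2654 CPM in CC080F1. The means of the medians differed by 0.455, and this difference was not tested. Of 12 fibroblast genes, 1 was higher and 1 lower over all sections, 5 were lower and none higher without CC075F1 replicate 2, and 4 were higher and none lower without CC080F1 replicate 2.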

How the results depend on the processing

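Between vessel-rich and vessel-free spots 2895 genes were called, against 1469 by the DESeq2 Wald test, 255 with no section block and 1873 to 2719 leaving out each section in turn (1873 without CC080F1 replicate 2). Beside against away, 517 genes were called, against 191 by DESeq2, 776 with scaling by total UMIs alone and 330 to 548 leaving out each section (330 without CC075F1 replicate 1 and 333 without CC080F1 replicate 2). For the strain difference, 6 genes were called, against 3 by DESeq2, 15 in interior spots, 20 with another draw, 26 with no matching, 43 with no filter and 9 to 44 leaving out each section (40 without CC075F1 replicate 1, 44 without CC075F1 replicate 2 and 17 without CC080F1 replicate 2). The cause was not tested. The sign turned for Acta1 beside against away in interior spots (−0.28), and without CC075F1 replicate 2 for Col1a2 (−0.64) and Bgn (−0.13), which ran up to 0.66 and 0.68 without CC080F1 replicate 2. The ratio of vessel-rich shares ran from 0.443 to 0.671 leaving out each section and was 0.341 after thinning, and the edge difference ran from 5.59 to 11.4 points.

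Replicate numbers are shared across hosts as numbers only. Deviations of same-numbered sections correlated at 0.144 over 8425 genes between the classes and at 0.00766 over 8294 genes beside against away. With the replicate block, 3093, 491 and 120 genes were called in the 3 comparisons. For the strain difference, the last of them, that fit has almost as many terms as the 8 sums, so its count is weakly founded. With 2 tumors per host, and few UMIs of each endothelial gene per spot, a vessel-free spot is limited by depth, and host comparisons by the number of tumors.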
